A study of Mus musculus with 18 samples.

Results

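The eotaxins and the myeloid CC chemokines were followed as 9 genes, Ccl11, Ccl24, Ccl2, Ccl7, Ccl8, Ccl12, Ccl3, Ccl4 and Ccl20, chosen by symbol. All 9 were found among the 23284 gene symbols of the mouse tables, and 8 human counterparts, all but a CCL12, among the 25548 symbols of the human ones. Each had a single entry. The study comprised 18 RNA sequencing libraries in 6 groups of 3. In the first pair of groups, memory T helper 2 (Th2) cells with high ST2, the receptor of IL-33, had grown for 3 days in IL-2 or in IL-2 together with IL-33. In the second pair, eosinophils had been kept for 3 days without or with amphiregulin, a growth factor of the EGF family. In the third pair, lungs came from wild-type mice or from knockout mice titled dGATA, both given OVA, and no group without OVA was analysed here. The labels name BALB/c mice throughout and do not spell out the dGATA allele, a time point or an age. The design text speaks of HDM, not OVA. Values are FPKM, fragments scaled to transcript length and to the fragments mapped in the library.

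The libraries were checked first. The eosinophil tables list human symbols although their labels name mouse, and they were read as human. Relative depth, with the lowest-numbered control library of each pair of groups set to 1.0, was 0.67 to 1.34 in the Th2 cells, 0.36 to 1.0 in the eosinophils and 0.58 to 1.0 in the lung. In dGATA lung the eosinophil peroxidase gene Epx was listed at 0 in all 3 libraries, but it did not exceed 0.388 FPKM in any lung library. Ccr3, the eotaxin receptor gene, was at 0.0493, 0.252 and 0.0729 FPKM in dGATA against 5.69, 5.88 and 4.53 in wild type. The 8 eosinophil markers summed to 179 to 350 FPKM in dGATA and 305 to 436 in wild type, so these sums overlapped. Most of each sum was Ear1 and Ear2, at 52.9 and 118.6 FPKM in dGATA library 1. They were 32.9 to 62.2 and 237.0 to 355.2 FPKM in the other lung libraries. Prg2 reached 1 FPKM in 3 wild-type libraries and in 0 dGATA libraries. The sums thus hide markers such as Prg2 and Ccr3. In the Th2 cells, macrophage markers summed to at most 11.7 FPKM and C1qa was listed at 0 in all 6 libraries. The eosinophil libraries held eosinophil markers at 1135 to 4735 FPKM in sum, but also neutrophil markers at 6736 to 19830.0 and macrophage and monocyte markers at 318 to 3805. The labels do not say whether replicates were separate animals, donors or cultures, so the spread behind each p-value is that of these samples alone and may be technical.

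CC chemokines are small secreted proteins that draw leukocytes along a gradient by way of G protein-coupled receptors. The eotaxins Ccl11 and Ccl24 bind CCR3 and recruit eosinophils, Ccl2, Ccl7 and Ccl12 bind CCR2 and recruit monocytes, and mouse Ccl8 binds CCR8, a receptor of Th2 cells. Ccl3 and Ccl4 are made by activated T cells and macrophages, while Ccl20 binds CCR6 and is made by airway epithelium. In allergic lung, IL-4 and IL-13 signalling through STAT6 is known to raise eotaxin transcription in structural cells and macrophages.

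The mouse genes lie in 2 stretches of chromosome 11 and on 2 other chromosomes (mm10). Ccl2 (chr11:82035577-82037452), Ccl7 (chr11:82045712-82047523), Ccl11 (chr11:82057832-82062955), Ccl12 (chr11:82101845-82103399) and Ccl8 (chr11:82115185-82116799) are neighbours. Ccl3 (chr11:83647843-83649378) and Ccl4 (chr11:83662584-83664683) lie together further along. Ccl24 (chr5:135569937-135573043) and Ccl20 (chr1:83116766-83119167) stand alone. RefSeq promoter windows on GRCm38.p6, 250 bases before to 50 after the start, were matched for 4 of the 9 members. These 4 are shown because no window was found for the other members. Among those were the eotaxins Ccl11 and Ccl24, and Ccl4, the member highest in Th2 cells. Ccl8 and Ccl12 varied together across the lung libraries described below. Capitals mark TATAA within 40 bases before the start and, in Ccl20, the overlapping matches to GGGNNNNCC, an NF-kB-type motif.
Ccl8, chr11:82114935-82115234, plus strand: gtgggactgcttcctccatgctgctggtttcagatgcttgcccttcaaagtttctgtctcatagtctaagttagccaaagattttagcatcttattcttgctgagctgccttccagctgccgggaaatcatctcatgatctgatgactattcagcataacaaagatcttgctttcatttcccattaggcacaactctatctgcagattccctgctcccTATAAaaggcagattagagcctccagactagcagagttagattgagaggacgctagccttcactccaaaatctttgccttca
Ccl12, chr11:82101595-82101894, plus strand: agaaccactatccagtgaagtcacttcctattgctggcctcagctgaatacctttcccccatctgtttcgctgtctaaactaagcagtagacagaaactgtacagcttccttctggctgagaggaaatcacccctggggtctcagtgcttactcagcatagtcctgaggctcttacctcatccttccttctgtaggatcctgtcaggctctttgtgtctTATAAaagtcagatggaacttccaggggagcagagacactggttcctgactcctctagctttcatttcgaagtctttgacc
Ccl3, chr11:83649329-83649628, minus strand: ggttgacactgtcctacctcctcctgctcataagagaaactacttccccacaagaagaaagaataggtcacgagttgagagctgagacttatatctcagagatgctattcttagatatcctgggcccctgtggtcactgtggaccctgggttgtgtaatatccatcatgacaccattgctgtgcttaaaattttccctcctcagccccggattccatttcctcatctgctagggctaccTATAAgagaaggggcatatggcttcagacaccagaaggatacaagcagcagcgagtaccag
Ccl20, chr1:83116516-83116815, plus strand: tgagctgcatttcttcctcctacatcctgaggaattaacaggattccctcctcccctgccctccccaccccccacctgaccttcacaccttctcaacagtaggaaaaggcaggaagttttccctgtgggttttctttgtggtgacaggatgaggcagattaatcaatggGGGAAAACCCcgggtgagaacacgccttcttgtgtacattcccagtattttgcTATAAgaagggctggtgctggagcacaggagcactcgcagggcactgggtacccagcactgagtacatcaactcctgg
Both strands were searched. TATAA began 32 bases before the start in Ccl8, 31 in Ccl12, 28 in Ccl20 and 11 in Ccl3, and 24.9% of the 32851 RefSeq windows held a TATAA anywhere. GGGNNNNCC was matched in Ccl20 alone of the 4, from 81 bases before the start, and in 43.8% of all windows. The STAT-type letters TTCNNNGAA (8.30% of all windows) and the AP-1-type letters TGANTCA (7.81%) were not in these 4 windows. Neither result bears on the eotaxins, whose promoters were not searched. Aligned end to end, the Ccl8 and Ccl12 windows were identical at 54.9% of columns, and the other 5 pairings at 46.6 to 50.6%.

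Across the 12 mouse libraries the chemokines split by source. Lung held Ccl8 above all, with Ccl11 next, whereas Th2 cells held Ccl4 and Ccl3 and little else. Ccl8 made up 84.5 to 86.8% of the members' summed FPKM in wild-type lung and 59.4 to 90.04% in dGATA lung, and was listed at 0 in all 6 Th2 libraries. Ccl4 made up 74.5 to 83.0% in Th2 cells, and CCL2 25.2 to 94.8% in the eosinophil cultures. Since FPKM is per length of transcript, these shares compare levels between genes.

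**Figure D1:**
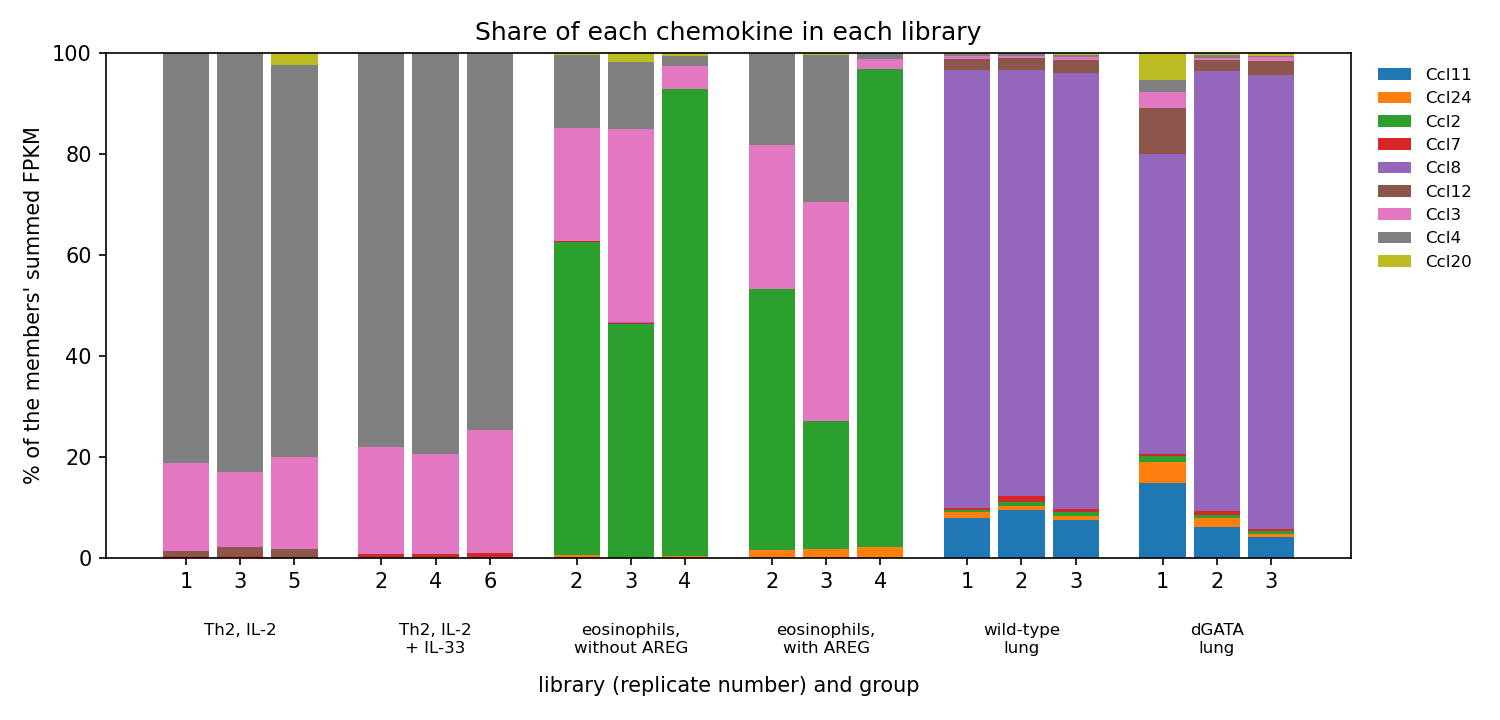
Share of each chemokine in the members' summed FPKM (y axis, %) in each of the 18 libraries (x axis, by group and replicate number; AREG is amphiregulin, and human symbols share the colour of the mouse gene). Ccl4 fills most of each Th2 bar, Ccl8 most of each lung bar, with its lowest lung share, 59.4%, in dGATA library 1, and CCL2 varies from 25.2 to 94.8% in the eosinophil cultures.

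In lung against Th2 cells, all 8 members that passed the filter (at least 1 FPKM in at least 6 of the 12 libraries) were called by limma on log2(FPKM + 1), 6 higher in lung and 2 lower, at a Benjamini-Hochberg adjusted p below 0.05 over all genes. Of the 13336 genes tested, 88.4% were called, 53.4% higher and 35% lower, so the count is near the background. Ccl8, Ccl11 and Ccl24 reached 1 FPKM in 0 Th2 libraries and passed the filter through the lung libraries alone, where they are high, so their calls follow in part from the filter. Ccl8 was 706.9 ± 442.3 FPKM in lung (SD, n = 6), a difference of 8.76 on the log2(FPKM + 1) scale (SE 0.813, limma adjusted p = 6.95e-07). Ccl11 was 56.4 ± 33.6 FPKM in lung (SD, n = 6) and at most 0.0645 in Th2 cells (5.39, SE 0.517, adjusted p = 9.40e-07, limma). Both were higher in every lung library than in any Th2 library, and groups did not overlap in either direction for 71.2% of genes.

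Ccl12 (log2 difference 3.31), Ccl24 (2.85), Ccl7 (1.57) and Ccl20 (1.37) were also higher in lung, but Th2 and lung libraries overlapped for Ccl12, Ccl7 and Ccl20. Ccl2, which fell below the filter, was 0.335 to 10.3 FPKM in lung and at most 0.125 in Th2 cells (exact permutation p = 0.00216, two-sided, n = 6 and 6). That is the lowest value possible with 6 libraries a side, reached whenever the sides do not overlap, as for 71.2% of genes tested. The permutation also takes libraries of both genotypes, and of both cultures, as alike. The reverse pattern was seen for Ccl4, at 131.0 ± 62.7 FPKM in Th2 cells and 3.46 ± 2.82 in lung (SD, n = 6 each, log2 difference -4.99, SE 0.380, adjusted p = 1.12e-07, limma). Ccl3 was 34.3 ± 24.4 FPKM in Th2 cells and 4.79 ± 2.29 in lung (-2.53, adjusted p = 6.11e-05, limma). The ratio of Ccl4 to Ccl3 was 3.06 to 5.58 in the 6 Th2 libraries and 0.406 to 1.13 in the 6 lung libraries. Under quantile normalization Ccl20 lay at -0.10 and Ccl7 at 0.29 (limma adjusted p = 0.807 and 0.570). Tissue, culture and library preparation cannot be told apart in this comparison, and for a gene near 0 in Th2 cells the difference depends on the added 1.

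**Figure D2:**
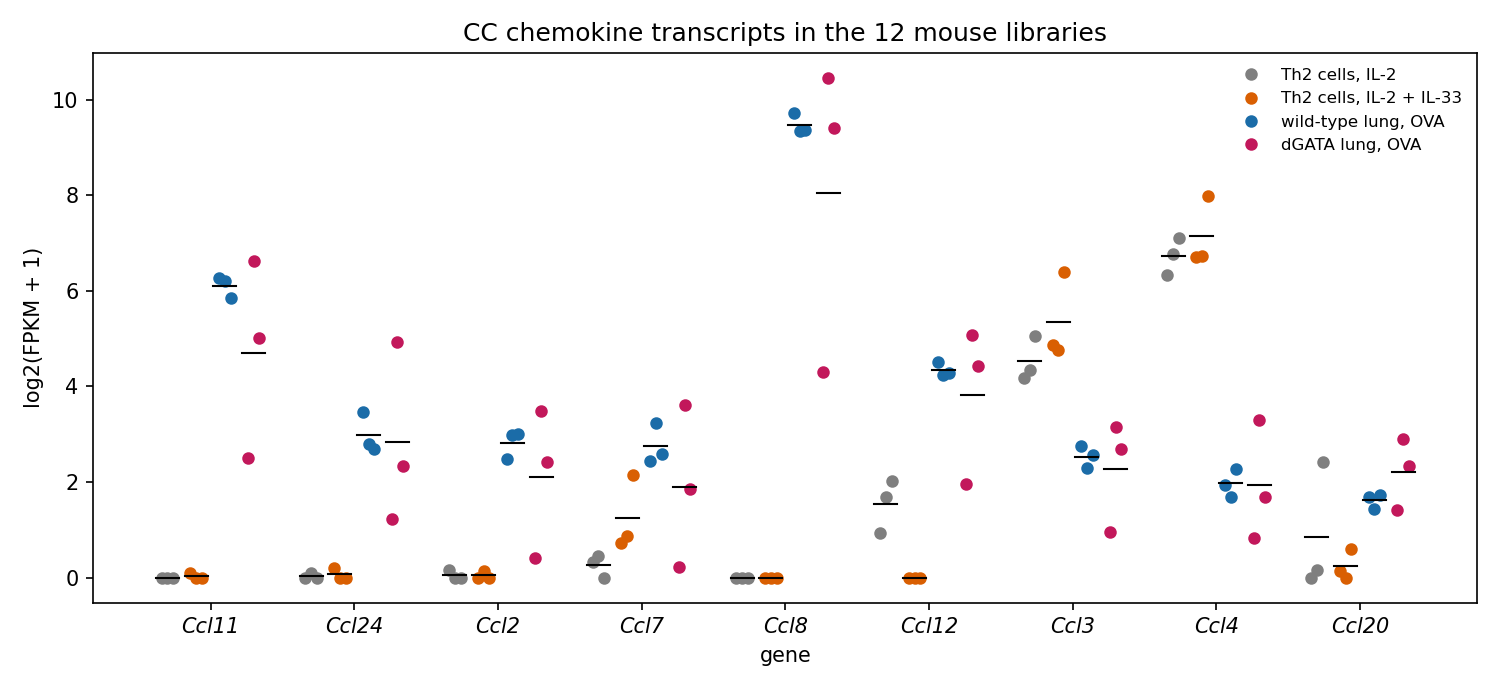
Each member's level, log2(FPKM + 1) on the y axis, in the 12 mouse libraries, with one point per library and a black line at the group mean. Ccl8 and Ccl11 sit at 0 or near it in the Th2 cells and highest in the lung, Ccl3 and Ccl4 are higher in Th2 cells, and the dGATA lung points are more spread than the wild-type points.

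The next question was how the lung chemokines stood in dGATA mice, in whose lungs Ccr3 was below wild type in every library. No member differed by the test: 0 of 9 tested were called, beside 0.0947% of the 13727 genes tested, and at an unadjusted p below 0.05 the count of members was also 0. With the replicate number as a block it was 0 of 9, beside 0.0219% of genes. After removing group means, like-numbered lung libraries correlated at -0.286, -0.116 and -0.243, so the number gives no ground for a block here. The groups overlapped for 9 of 9, whereas they did not overlap for 14.1% of genes. The dGATA libraries instead lay on both sides of wild type. dGATA library 1 was the lowest of the 6 lung libraries for 9 of 9 members, and dGATA library 2 the highest for 9 of 9. Over all tested genes, library 1 was lowest for 30.5%, library 2 was highest for 22.7%, and both held for 13.4%.

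Among the eotaxins, Ccl11 was 76.6, 72.3 and 56.9 FPKM in wild-type lung and 4.64, 97.1 and 31.2 in dGATA lung. Its groups overlapped, and the difference was -1.40 on the log2(FPKM + 1) scale (SE 0.961, adjusted p = 0.835, limma, n = 3 per group). Ccl24, a macrophage product in mouse lung, was 9.997, 5.91 and 5.45 FPKM in wild type and 1.35, 29.3 and 4.07 in dGATA. Only library 2 of the dGATA group exceeded wild type, and the difference was -0.15 (SE 0.892, adjusted p = 0.986, limma). The ratio of Ccl11 to Ccl24 was 7.66, 12.2 and 10.4 in wild type and 3.44, 3.32 and 7.65 in dGATA.

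Ccl8 was 840.5, 649 and 661 FPKM in wild type and 18.7, 1399.9 and 673 in dGATA lung. The wild-type libraries lay close together, and the dGATA libraries lay far below, far above and within the wild-type range (log2 difference -1.43, SE 1.52, adjusted p = 0.911, limma). Ccl12, its neighbour, was 21.9, 17.99 and 18.4 FPKM in wild type and 2.88, 32.9 and 20.6 in dGATA, in the same order as Ccl8 (-0.52, SE 0.763, adjusted p = 0.940, limma). The ratio of Ccl8 to Ccl12 was 35.9 to 38.5 in wild type, 42.5 and 32.7 in dGATA libraries 2 and 3, and 6.49 in dGATA library 1. Over the 6 libraries their log2(FPKM + 1) values correlated at 0.995 (Pearson r), a description in which dGATA library 1 lies far from the rest.

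The monocyte attractants Ccl2 and Ccl7 had negative differences that were not called. Ccl2 was 4.54, 6.97 and 7.004 FPKM in wild type and 0.335, 10.3 and 4.37 in dGATA (-0.71, SE 0.734, adjusted p = 0.907, limma). Ccl7 was 4.43, 8.34 and 5.01 FPKM in wild type and 0.169, 11.2 and 2.63 in dGATA (-0.85, SE 0.802, adjusted p = 0.896, limma). For both, dGATA library 3 lay below every wild-type library and library 2 above them.

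Ccl3, Ccl4 and Ccl20 completed the set. Ccl3 was 5.72, 3.87 and 4.91 FPKM in wild type and 0.945, 7.83 and 5.44 in dGATA (-0.27, SE 0.545, adjusted p = 0.959, limma). Ccl4 was 2.86, 2.22 and 3.83 FPKM in wild type and 0.773, 8.84 and 2.21 in dGATA (-0.03, SE 0.597, adjusted p = 0.995, limma). Ccl20 alone had a positive difference, at 2.24, 1.70 and 2.32 FPKM in wild type and 1.68, 6.41 and 4.03 in dGATA (0.59, SE 0.357, adjusted p = 0.800, limma). Its library 1 lay just below the lowest wild-type library.

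**Figure D3:**
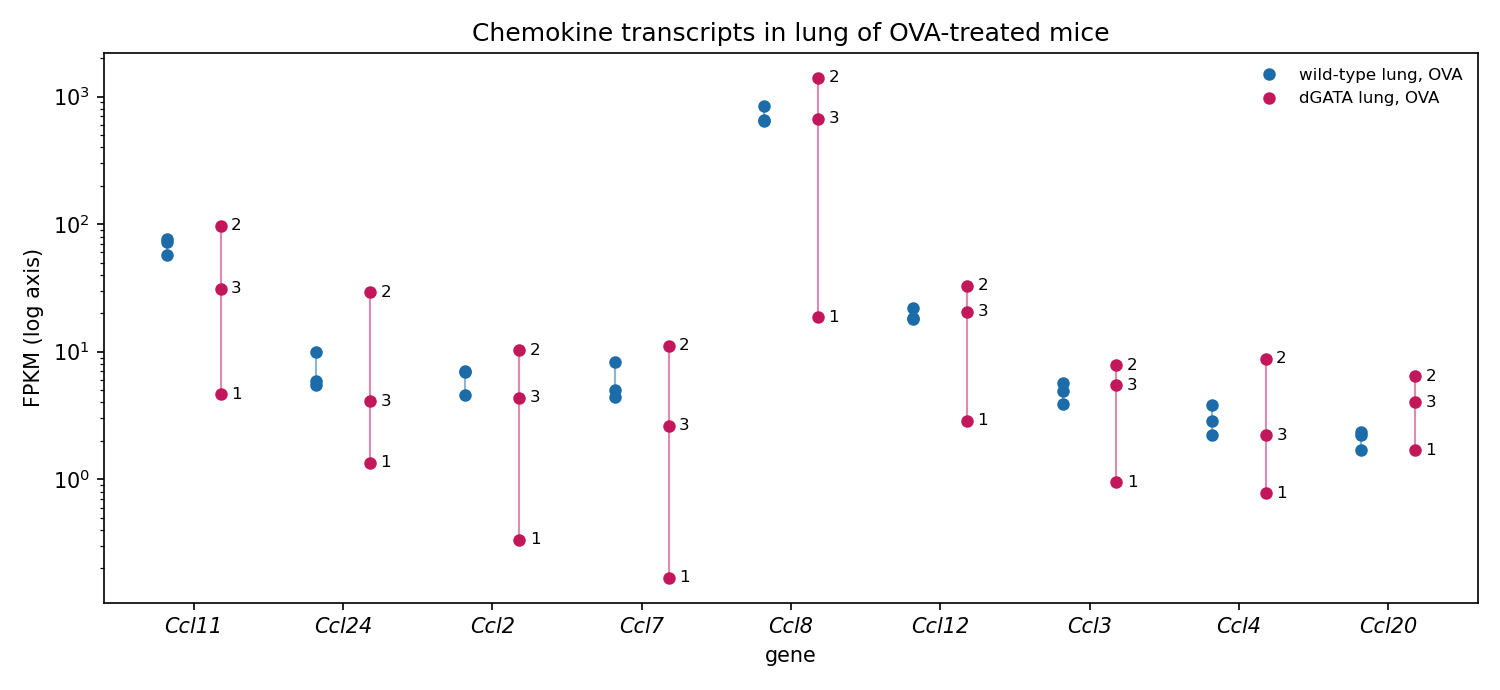
FPKM (log axis) of the 9 members in the 6 lung libraries, one point per library, with the dGATA libraries marked by number. For each member dGATA library 1 is the lowest point and dGATA library 2 the highest, and the 3 wild-type points lie between them.

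Library 1 decided the sign of most differences. It lay at least 4-fold below the median of the other 5 libraries for 7 of 9 members, beside 1.38% of all genes, from 4.39-fold for Ccl24 to 36-fold for Ccl8. Ccl4 (3.69-fold) and Ccl20 (1.38-fold) were the others. Without it, the log2 differences were 0.45 for Ccl8, 0.41 for Ccl12, 0.65 for Ccl24, 0.14 for Ccl2, 0.38 for Ccl3, 0.52 for Ccl4, 0.99 for Ccl20, -0.02 for Ccl7 and -0.30 for Ccl11, and 0 of 9 were called. Ccl20 had the lowest adjusted p of these (0.186, limma).

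**Figure D4:**
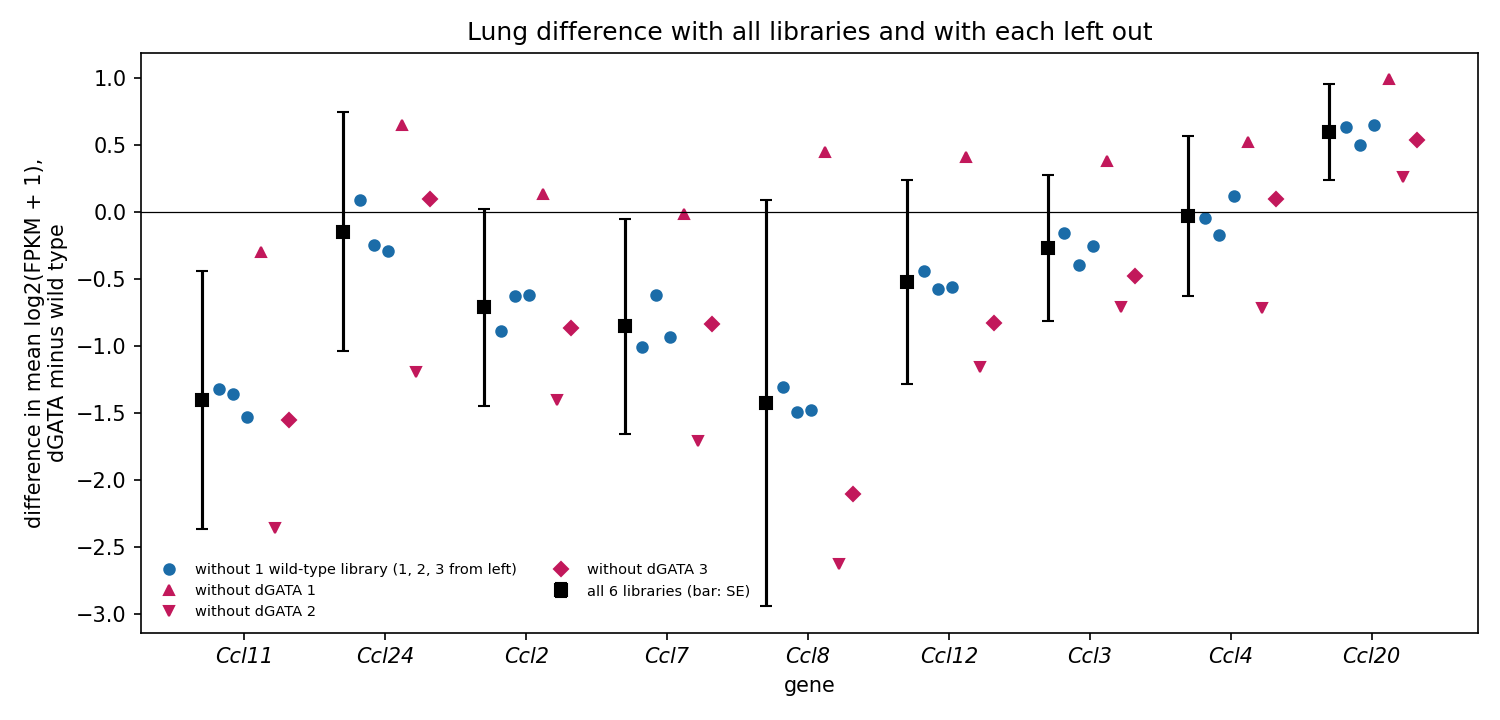
Difference in mean log2(FPKM + 1), dGATA minus wild type (y axis), for each member with all 6 lung libraries (squares, bars are SE) and with each library left out in turn (other symbols). Leaving out dGATA library 1 lifts every member, to between -0.30 for Ccl11 and 0.99 for Ccl20, whereas leaving out dGATA library 2 lowers every member.

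Other genes were low in dGATA library 1 as well. It was lowest for 8 of 10 macrophage and monocyte markers, 5 of 5 T cell, 6 of 6 Th2, 4 of 4 B cell, 4 of 4 smooth muscle and 3 of 6 fibroblast markers. For eosinophil, mast cell, dendritic and neutrophil markers these counts were 4 of 8, 3 of 5, 4 of 6 and 2 of 5. Of the Th2 markers, Il4 and Il13 were listed at 0 in library 1, and Il5 and Ccr8 were at 0.152 and 0.423 FPKM. Library 1 was highest for 5 of 6 epithelial, 4 of 5 endothelial, 1 of 6 dendritic and 1 of 5 mast cell markers. Over all tested genes library 1 was lowest for 30.5% and highest for 25.3%, so it was extreme in both directions. For 3 of the 10 macrophage and monocyte markers it lay at least 4-fold below the median of the other 5 libraries, beside the 1.38% of all genes given above. The same held for 3 of 5 mast cell, 3 of 8 eosinophil and 2 of 6 Th2 markers, and for 0 markers of the other cell types. It also held for 3 of 9 receptors of the members and 3 of 10 IL-4 and IL-13 genes. Of other CC chemokines it held for 2 of 11, and of inflammatory inducers and NF-kB genes for 1 of 10. Such drops were thus not particular to macrophage markers. The summed macrophage markers spanned 4990 to 6863 FPKM in dGATA and 5453 to 6113 in wild type, and fibroblast markers 320 to 526 and 535 to 688. Most of the macrophage sum was Lyz2, at 4357 FPKM in dGATA library 1 and 3256 to 5267 in the other 5 libraries. The sum thus hides markers such as C1qa, at 50.8 FPKM in dGATA library 1 and 203.5 to 325.6 in the others. The part of these cell types in the chemokine values was not tested, and in whole tissue fewer cells of a type and less RNA per cell cannot be told apart. By Pearson r over the 6 lung libraries, again with library 1 far from the rest, Ccl8 was most like Chi3l3 (0.999), C1qa (0.996) and Sulf2 (0.996). Ccl11 was most like Col5a2, C3 and Arap1 (0.997 to 0.998), and Ccl24 like Slc41a2 and Cd63 (0.995 each).

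Of the receptors, 1 of 9 tested was lower in dGATA lung: Ccr3 fell (log2 difference -2.50, SE 0.135, adjusted p = 0.00326, limma, n = 3 per group), a gene that passed the filter through the wild-type libraries alone. Its ligands Ccl11 and Ccl24 were not called. The list's median was -0.25, beside -0.03 over all genes tested and -0.52 over the 9 members. Ccr2 was 17.8 ± 2.30 FPKM in wild type and 10.8 ± 3.42 in dGATA (SD, n = 3 each, limma adjusted p = 0.649). Of 10 other CC chemokines tested, 8 of IL-4 and IL-13 signalling and 8 inflammatory inducers and NF-kB genes, 0 were called by limma. At an unadjusted p below 0.05 these counts were 1, 2 and 0, beside 6.84% of all genes tested. Ccl6 was the most abundant of the other CC chemokines, at 445.9 ± 46.8 and 387 ± 242 FPKM.

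In Th2 cells the question was whether IL-33 moved the chemokines these cells make. The 2 members that passed the filter (at least 1 FPKM in at least 3 of 6 libraries), Ccl3 and Ccl4, were not called (0 of 2, also at an unadjusted p below 0.05), beside 42.1% of 10296 genes tested. Ccl3 was 17.0, 19.3 and 32.4 FPKM in IL-2 and 28.2, 26.0 and 82.7 with IL-33 (log2 difference 0.81, SE 0.452, adjusted p = 0.184, limma, n = 3 per group). Ccl4 was 79.6, 107 and 137 FPKM in IL-2 and 103, 105 and 253 with IL-33 (0.41, SE 0.369, adjusted p = 0.404, limma). For both the groups overlapped, and the highest value of each group came from its library with the largest number, 5 and 6, which were also the shallowest. Without library 6 the differences were 0.29 for Ccl3 and -0.02 for Ccl4. Without libraries 5 and 6, a choice made after the values were seen that leaves 2 libraries a group, Ccl3 was called higher with IL-33 (0.56, adjusted p = 0.00121, limma) and Ccl4 was not (0.17, adjusted p = 0.303), beside 56.8% of genes called. The labels give both groups no shared number, and no pairs were assumed.

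Among low members, Ccl7 was 0.252, 0.367 and 0 FPKM in IL-2 and 0.660, 0.815 and 3.41 with IL-33, every library higher (exact permutation p = 0.1, which is the lowest value possible with 3 libraries a group). Ccl12 was 0.905, 2.20 and 3.05 FPKM in IL-2 and listed at 0 in all 3 libraries with IL-33 (exact permutation p = 0.1). Over all tested genes, 56.7% had groups that did not overlap. Ccl12 was called lower by limma when no filter was used (adjusted p = 0.0125), beside 26.4% of all genes called in either direction. It was also called lower by limma after rescaling to a common sum (0.00178), beside 33.5% of genes. After rescaling it passed the filter through the IL-2 libraries alone, where it is high, so that call follows in part from the filter. Ccl20 was 0, 0.122 and 4.31 FPKM in IL-2 and 0.0942, 0 and 0.511 with IL-33. Ccl11, Ccl24 and Ccl2 were at or below 0.155 FPKM in every Th2 library.

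Receptors of the members were measured in the same cells. Of 6 tested, 3 rose and 1 fell, beside 16.3% of all genes tested that rose and 25.7% that fell, with a list median of 1.08 beside -0.11 over all genes. Ccr8, the receptor of mouse Ccl8, rose from 22.3 ± 1.29 to 130.9 ± 18.2 FPKM (SD, n = 3 each, log2 difference 2.49, SE 0.112, adjusted p = 2.30e-05, limma). Ccr1, a Ccl3 receptor, rose from 1.499 ± 0.932 to 37.3 ± 5.74 FPKM (4.01, adjusted p = 0.000144, limma), and Ccr3 rose from 1.18 ± 0.543 to 6.95 ± 1.16 (1.89, adjusted p = 0.000690, limma). Ccrl2, counted on this list although it binds chemerin and does not signal, fell from 10.3 ± 3.53 to 0.830 ± 0.173 FPKM (-2.59, adjusted p = 0.000216, limma). The Ccl2 receptor Ccr2 was not called, at 199 ± 76.8 FPKM in IL-2 and 143 ± 32.3 with IL-33 (SD, n = 3 each, limma adjusted p = 0.339).

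Of 3 other CC chemokines tested in Th2 cells, 2 fell. Ccl5, a T cell attractant, was 173, 185 and 190 FPKM in IL-2 and 37.6, 30.8 and 28.0 with IL-33 (log2 difference -2.48, SE 0.117, adjusted p = 2.44e-05, limma). Ccl1, a CCR8 ligand, was 1493, 1659 and 8752 FPKM in IL-2 and 222, 199.7 and 902 with IL-33 (-3.02, SE 0.821, adjusted p = 0.0242, limma). As for Ccl3 and Ccl4, libraries 5 and 6 were the highest of their groups for Ccl1. Of 9 genes of IL-4 and IL-13 signalling, 2 rose (Il4 and Il4ra) and 2 fell (Il13ra1, which passed the filter through the IL-2 libraries alone, and Jak1). Of 8 inflammatory inducers and NF-kB genes, the feedback inhibitor Tnfaip3 rose (1.21, adjusted p = 0.00325, limma), and Il6 and Nfkb1 fell (adjusted p = 0.0371 and 0.0496). Both counts, 4 of 9 and 3 of 8, are near the 42.1% called over all genes. By Pearson r over the 6 Th2 libraries, Ccl3 was most like Nfkbia (0.997), and Ccl3 and Ccl4 correlated at 0.965. These are descriptions in which library 6 lies far from the rest, at 82.7 FPKM for Ccl3 and 253 for Ccl4. A link between these genes was not tested.

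In the eosinophil cultures, CCL24 was the member that rose with amphiregulin, in the fit that kept sample numbers together. It was 1.31, 0 and 1.47 FPKM without amphiregulin and 6.45, 10.2 and 23.4 with it, for sample numbers 2, 3 and 4. Every library with amphiregulin was higher than every library without, as for 6.69% of the 12636 genes tested. The log2(FPKM + 1) difference was 2.83 (SE 0.545, adjusted p = 0.453, limma, n = 3 per group), and 0 of 5 tested members were called, beside 0.206% of genes, with 1 of 5 at an unadjusted p below 0.05, beside 3.11% of genes. With the sample number as a block, 1 of 5 was called, CCL24 (SE 0.372, adjusted p = 0.0224, limma), beside 1.12% of genes in either direction and 0.53% higher. That call was lost without sample number 3 in both groups, when 0 of 5 members and 0.15% of genes were called. It rests on the block, and the check behind the block did not separate numbers 2 and 3 from each other.

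CCL2 was the most abundant member, at 177, 87.0 and 505 FPKM without amphiregulin and 224, 144 and 1091 with it (log2 difference 0.72, SE 0.915, adjusted p = 0.999, and 0.234 with the block, limma). It was higher with amphiregulin in 3 of 3 numbers, as were 17.6% of genes, and number 4 held the highest value in both groups. CCL3 was 63.9, 72.2 and 24.9 FPKM without and 123, 247 and 21.6 with amphiregulin (0.83, SE 0.890, adjusted p = 0.999, and 0.427 with the block, limma). CCL4 was 41.1, 24.7 and 10.97 FPKM without and 78.2, 166 and 14.2 with it (1.32, SE 0.905, adjusted p = 0.999, and 0.267 with the block, limma). Number 4, highest for CCL2, was lowest for CCL3 and CCL4 in both groups. Without it both were called in the fit with the block (adjusted p = 0.000475 and 9.86e-08, limma), beside 5.41% of genes, against 1.12% with all numbers. That fit leaves out the number in which CCL3 was not higher with amphiregulin. In the fit without the block, leaving out 1 library moved CCL3 to between 0.09 (without sample number 3 of the amphiregulin group) and 1.82 (without its number 4) and CCL4 to between 0.56 and 2.29 (without the same libraries), and neither was called.

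The ratio of CCL4 to CCL3 was 0.342 to 0.644 without and 0.636 to 0.673 with amphiregulin. Near-identical copies could share reads with both genes: CCL3L1 and CCL3L3 had means of 12.7 to 25.3 FPKM and CCL4L1 and CCL4L2 of 16.6 to 28.3, so the levels of CCL3 and CCL4 are uncertain. CCL20 was 0.971, 3.49 and 2.91 FPKM without and 0.996, 2.29 and 0.444 with amphiregulin (-0.62, SE 0.446, adjusted p = 0.999, limma). CCL11 was listed at 0 in all 6 libraries, and CCL7 and CCL8 did not exceed 0.353 FPKM. CCL26, a further human eotaxin, was 0.353, 3.66 and 0 FPKM with amphiregulin and listed at 0 in the libraries without it.

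**Figure D5:**
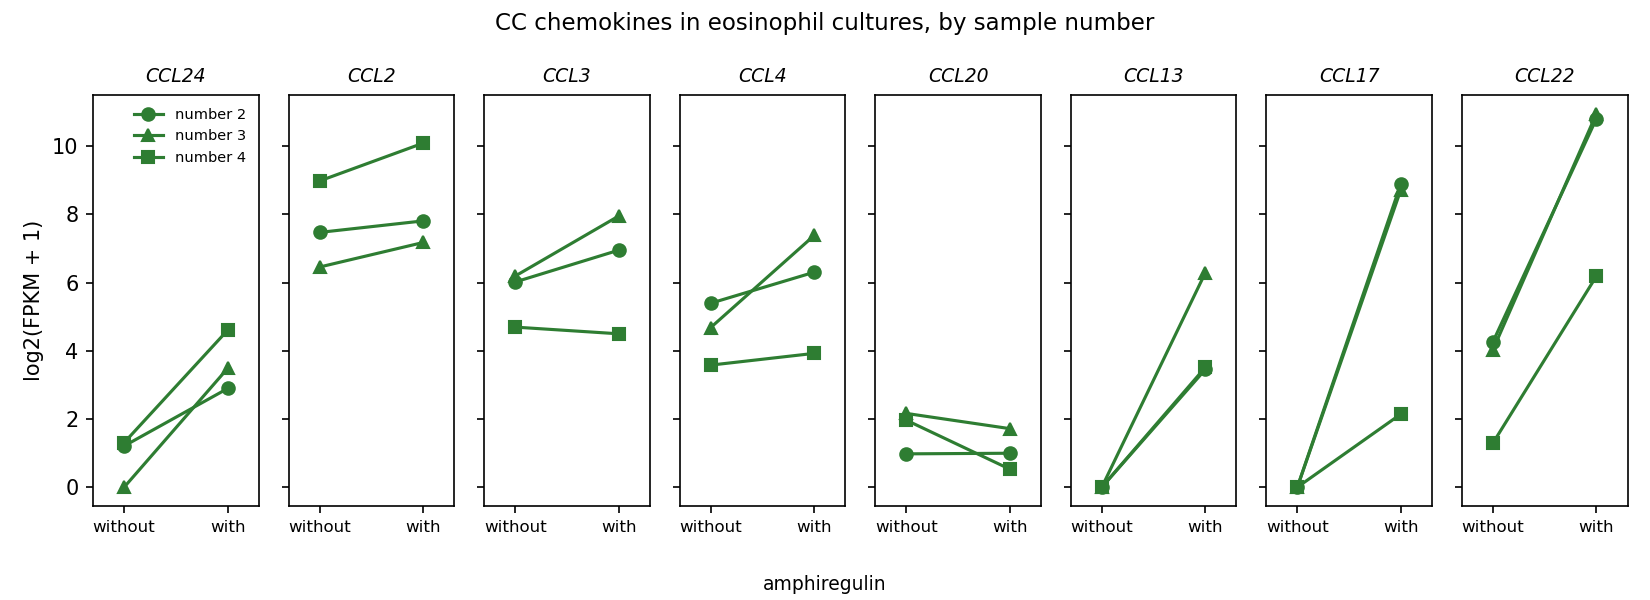
Levels as log2(FPKM + 1) (y axis) of 5 members and 3 other CC chemokines in eosinophil cultures without and with amphiregulin (x axis), with a line joining libraries of the same sample number. CCL24, CCL13, CCL17 and CCL22 are higher with amphiregulin on each line and their groups do not overlap, whereas CCL3 is slightly lower for number 4 and CCL20 has no common direction.

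Other CC chemokines outside the member set were measured beside them. Of 7 tested, 0 were called in the fit without the block (3 at an unadjusted p below 0.05) and 2 rose with it. CCL22, a CCR4 ligand, was 18.1, 15.3 and 1.45 FPKM without and 1794, 1986 and 72.1 with amphiregulin (log2 difference 6.13, adjusted p = 0.757, and 0.00118 with the block, limma). CCL13, a CCR2 and CCR3 ligand, was listed at 0 without and was 9.97, 77.4 and 10.5 FPKM with amphiregulin (adjusted p = 0.265, and 0.0175 with the block, limma). CCL17, the other CCR4 ligand, was listed at 0 without and was 478, 423 and 3.43 FPKM with it (adjusted p = 0.0673 with the block, limma). CCL13 and CCL17 passed the filter through the amphiregulin libraries alone, so the call of CCL13 follows in part from the filter. The median over these 7 genes was 1.44, beside 0.02 over all genes and 0.83 over the 5 members.

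Markers of other cells moved with amphiregulin. Dendritic markers summed to 2.38 to 38.9 FPKM without and 14.3 to 186.5 with it, and 2 of 5 tested, CD209 (which passed the filter through the amphiregulin libraries alone) and CLEC10A, rose with the block. Macrophage and monocyte markers summed to 530 to 3805 without and 318 to 1643 with it, and 4 of 10 (CD14, MERTK, CD163 and APOE) fell with the block. Over all 12636 genes tested, 67 rose and 74 fell with the block. The part of these cell types in the chemokine levels was not tested. No tested receptor of the members was called in either fit (0 of 6). CCR3 was 53.4, 72.2 and 136.5 FPKM without and 28.5, 42.2 and 90.2 with amphiregulin, lower in every number (adjusted p = 0.115 with the block, limma). SOCS1, an inhibitor of cytokine signalling, was the gene of 7 tested on the IL-4 and IL-13 list that rose with the block (1.44, adjusted p = 0.0317, limma), and of 8 inflammatory inducers and NF-kB genes 0 were called. CCL24 was most like GGT5, CYP1A1 and IL10RA over the 6 libraries (Pearson r 0.982 to 0.984), and less like CCL2 (0.612).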

How the data were processed

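RNA of 18 libraries was sequenced from a stranded mRNA kit, per the labels' protocols. The authors deposited FPKM per gene, made with Cufflinks 2.0.2, TopHat 1.3.2 and Bowtie 0.12.8 on mm10, per the submitters' processing notes. For the human tables the build was not given in the sources used here. Reads and counts were not analysed here, so total depth is unknown, and relative depth came from ratios of values below 0.2 FPKM. Of 108 mouse member values 25 were at 0, and of 48 human values 14.

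Entries were summed per symbol (240 mouse and 45 human symbols had several), and 114 human Y-linked and X-inactivation symbols were left out. Genes with at least 1 FPKM in at least 3 of 6 libraries (6 of 12 for lung against Th2 cells) were tested on log2(FPKM + 1) with limma 3.58.1 in R 4.3.3, trend option, Benjamini-Hochberg adjusted over all tested genes, threshold 0.05. This scale understates differences of low genes. Members below the filter had a two-sided exact permutation test. The script was tested on simulated data. Mouse starts were raised by 1. After removing group means, the eosinophil libraries of sample numbers 2, 3 and 4 had correlations of 0.399, 0.356 and 0.670 with the like-numbered library of the other group. Each was over 0.1, so the number was used as a block. Unlike-numbered libraries 2 and 3 also correlated across the groups, at 0.281 and 0.308, whereas number 4 lay at -0.506 to -0.428 with both. The check thus set number 4 apart and did not separate numbers 2 and 3 from each other. The labels do not say what the number marks. In the lung the same correlations were -0.286, -0.116 and -0.243, and no pairs were assumed. The labels give no batch. All members were named whatever their values, and from the other lists genes that were called, up to 6 by adjusted p, or the 3 of highest mean, with CCR3, CCL17, CCL26, Ccr2 and the libraries' marker genes named after their values were seen. Some genes the rule covers are left out here. Promoter motifs were chosen after values were seen, and a longer NF-kB-type and a STAT6-type pattern were also searched but are not reported here. Members and lists were chosen with earlier results of these data known. Alternatives were pseudocount, filter, scaling, weights, several entries, small RNA features, block, each library left out and, added after seeing the data, Th2 libraries 5 and 6 left out together.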

Additional observations from a re-analysis of the deposited data

How the results depend on the processing

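Counts of members called changed under few settings. In Th2 cells 1 member, Ccl12, was called with no filter or when values were rescaled to TPM, where it passed the filter through the IL-2 libraries alone. Ccl3 was the 1 member called without libraries 5 and 6, an alternative chosen after seeing the data. In the eosinophils the count was 0 without the block, 2 with array weights (CCL24 and CCL3) and 1 with the replicate block. With the block and a sample number left out it was 0 to 3, beside 19 to 683 of all genes. In the lung it was 0, or 1 with array weights (Ccl20), and the replicate block called 0. In lung against Th2 cells it was 8, or 9 with no filter (Ccl2 added), 6 with quantile normalization (without Ccl7 and Ccl20) and 3 with a stricter filter (5 FPKM), under which fewer genes were tested. Leaving out 1 library at a time gave 0 members in the Th2, eosinophil and lung comparisons and 8 in lung against Th2 cells.

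Signs of some member differences changed. Without single Th2 libraries Ccl24 ranged from -0.0312 to 0.0727, Ccl2 from -0.0565 to 0.0462 (0.0128 in 2 of the fits), Ccl4 from -0.0203 to 0.62 and Ccl20 from -1.05 to 0.16. In the eosinophils CCL2 ranged from -0.14, without amphiregulin replicate 4, to 1.39, and CCL20 was 0.082 with array weights. In the lung, leaving out 1 library gave -1.19 to 0.65 for Ccl24 (0.09 without wild-type replicate 1, 0.10 without dGATA replicate 3), -1.40 to 0.14 for Ccl2, -2.63 to 0.45 for Ccl8, -1.15 to 0.41 for Ccl12, -0.71 to 0.38 for Ccl3 and -0.72 to 0.52 for Ccl4 (0.12 without wild-type replicate 3, 0.09 without dGATA replicate 3). Array weights gave 0.0349 for Ccl12 and 0.11 for Ccl3, and Ccl4 was 0.0009 with median-of-ratios scaling and 0.0825 with quantile normalization. Ccl20 in lung against Th2 cells was -0.10 under quantile normalization. The cause of these changes was not tested.

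Counts over all genes moved more. In the eosinophils 26 genes were called, 3236 with array weights, 0 without small RNA features, 141 with the block and 4 (without amphiregulin replicate 3) to 72 (without amphiregulin replicate 4) without single libraries. In the lung 13 were called, 1436 with array weights, 3 with the block and 2 to 16 without single libraries. In Th2 cells 1680 were higher and 2651 lower, or 2048 and 1636 after rescaling to a common sum, and in lung against Th2 cells 7120 and 4663, or 4825 and 6823 with quantile normalization, which moved the median of all genes from 0.32 to -0.25. Rescaling moved that median from 0.02 to 0.20 in the eosinophils. With 3 libraries a group and unknown total depth, values at 0 do not show that a transcript was absent.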
